A study of Mus musculus with 2 samples.

Results

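The transcripts of 7 genes of the core pluripotency network, *Pou5f1*, *Sox2*, *Sall4*, *Utf1*, *Zscan10*, *Gdf3* and *L1td1*, were followed through single wild-type and *Lin28a* knockout mouse embryonic stem (ES) cells. They are 7 of the 54146 genes listed in the count tables and were taken by matching Ensembl identifiers to symbols, a rule that uses no measured value. The study made 1 inDrop library from each genotype. In this method single cells are caught in droplets, and a molecular tag on each transcript lets reads be collapsed to unique molecular identifiers (UMIs). Both libraries came from E14 ES cells derived from the inner cell mass, grown without further treatment in LIF/2i medium for 2 days on gelatin and mouse embryonic fibroblast (MEF) feeder cells. Per the study's methods the wild-type cells (WT_ES) were a transfected clone that stayed wild-type, and the knockout cells (AKO_ES) were 1 clone made with CRISPR/Cas9 and a guide to an early exon of *Lin28a*. Genotype therefore cannot be told apart from clone, culture or library.

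OCT4, the protein of *Pou5f1*, binds DNA through a POU domain, SOX2 binds through an HMG box, and side by side on composite sites they drive the genes that keep ES cells pluripotent, their own genes included. SALL4 is a zinc-finger factor found in complexes with OCT4, UTF1 is a chromatin-associated factor whose gene is a classical target of the OCT4 and SOX2 pair, and ZSCAN10 is a zinc-finger factor of ES cells. GDF3 is a secreted ligand of the TGF-beta family, and L1TD1 is an RNA-binding protein of pluripotent cells derived from the first open reading frame of a LINE-1 element.

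In GRCm38, *Pou5f1* (ENSMUSG00000024406.16) lies on chromosome 17 from 35506018 to 35510772 on the plus strand, and *Sox2* (ENSMUSG00000074637.7) on chromosome 3 from 34650405 to 34652461, also on the plus strand. The 250 bases before the first RefSeq start of each gene are shown because these genes went opposite ways between the libraries. They also did so between cells poor in ribosomal protein transcripts and other cells, with *Sox2* less certain there in the wild-type library. Capitals mark matches to the octamer core ATGCAAA, the SOX cores ACAAAG and ACAATG, the nuclear receptor core AGGTCA, the GC box core GGGCGG and the TATA core TATAAA, searched on both strands. Both runs are read on the plus strand of GRCm38.p6, at chr17:35505782-35506031 for *Pou5f1* and chr3:34649745-34649994 for *Sox2*.
Pou5f1: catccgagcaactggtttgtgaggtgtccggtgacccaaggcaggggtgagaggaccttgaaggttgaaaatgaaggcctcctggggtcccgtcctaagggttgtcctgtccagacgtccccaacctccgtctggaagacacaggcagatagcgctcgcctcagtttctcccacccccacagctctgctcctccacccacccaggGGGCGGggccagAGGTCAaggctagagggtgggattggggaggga
Sox2: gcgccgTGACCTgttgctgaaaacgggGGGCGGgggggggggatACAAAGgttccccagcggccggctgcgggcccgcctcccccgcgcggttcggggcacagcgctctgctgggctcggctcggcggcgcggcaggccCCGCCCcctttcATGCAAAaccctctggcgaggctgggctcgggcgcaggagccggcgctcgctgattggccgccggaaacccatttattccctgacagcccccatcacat
The *Sox2* window held 1 octamer core and 1 ACAAAG core, letters found in 4.12% and 16.5% of the 32851 promoter windows of the same length, and the *Pou5f1* window held neither. Both held AGGTCA and GGGCGG, which stood in 14.0% and 32.7% of all windows, and TATAAA, present in 12.4% of windows, was in neither. A second RefSeq start of *Pou5f1*, with its window at chr17:35508557-35508806, had 1 ACAATG core, as did 10.7% of windows. The *Utf1* window held 4 GGGCGG matches, while those of *Zscan10* and *L1td1* held none of the 6 motifs. *Sall4* and *Gdf3* had no entry. These matches are letters in a window and not measured binding.

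The other 5 genes lie on chromosome 2 from 168748332 to 168767943 on the minus strand (*Sall4*, ENSMUSG00000027547.17), chromosome 7 from 139943789 to 139945112 on the plus strand (*Utf1*, ENSMUSG00000047751.9), chromosome 17 from 23600856 to 23611019 on the plus strand (*Zscan10*, ENSMUSG00000023902.18), chromosome 6 from 122605403 to 122610087 on the minus strand (*Gdf3*, ENSMUSG00000030117.5) and chromosome 4 from 98726734 to 98738480 on the plus strand (*L1td1*, ENSMUSG00000087166.9). *Sox2* sits inside the long transcript *Sox2ot* on the same strand, and the antisense gene *Gm19553* overlaps *Pou5f1*. The tables marked 1 *Pou5f1* UMI per library as ambiguous between genes and none of the other 6.

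Barcodes with at least 500 UMIs and at most 20% mitochondrial UMIs were kept as cells. This left 1856 wild-type cells with 11639256 UMIs (median 6140 per cell) and 1622 knockout cells with 9340855 UMIs (median 5063.5). Levels are UMIs of a gene summed over cells and set to 1000000 UMIs in all (CPM). With 1 library per genotype no test was possible, and the intervals, all exact 95% intervals, cover counting error only. Below, values given as a pair are in the order wild-type, knockout, and ratios between libraries are knockout over wild-type. All 10 ES markers had UMIs in both libraries, at a summed 3829 and 3838 CPM. Markers of other cell types summed to 2288 and 1317 CPM for fibroblasts (20 genes), 29.0 and 35.0 CPM for primitive endoderm (8 genes, *Foxa2* at 0 in wild-type cells), 92.5 and 70.6 CPM for primed epiblast (7 genes), 49.1 and 36.6 CPM for trophoblast (6 genes, *Hand1* at 0 in wild-type cells) and 36.7 and 47.9 CPM for neural cells (5 genes). Of the cells, 31 (1.67%) and 16 (0.986%) had at least 1% of their UMIs on *Col1a1*, *Col1a2* and *Col3a1* and are called collagen-rich. *Lin28a* itself stood at 107 and 36.6 CPM, a ratio of 0.343 (0.304 to 0.387). Reads of this method come from the 3′ end of a transcript, away from the targeted exon, so they do not check the loss of the protein.

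*Pou5f1* was the most abundant of the 7 transcripts and was higher in the knockout library, whereas *Sox2* was lower there. *Pou5f1* had 838 CPM (821 to 855) in wild-type cells against 1014 CPM (994 to 1035) in knockout cells, a ratio of 1.21 (1.18 to 1.24). *Sox2* had 159 CPM (152 to 166) against 92.4 CPM (86.3 to 98.8), a ratio of 0.581 (0.536 to 0.631). It was the only one of the 7 past 1.5-fold in either direction, against 14.9% of the 9831 genes with at least 200 UMIs, and 3.78% of those genes had a lower ratio. As a mean of each cell's own CPM, in which shallow and deep cells weigh the same, *Pou5f1* stood at 1.08 and *Sox2* at 0.687, and *Zscan10*, just past 1.5-fold, became the only gene beyond it.

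The partners split likewise, with 3 on the side of *Pou5f1* and 2 on the side of *Sox2*. *Sall4* had 139 CPM (132 to 146) against 120.2 CPM (113 to 127), a ratio of 0.865 (0.801 to 0.934). *Utf1* had 174 CPM (166 to 182) against 199.6 CPM (191 to 209), a ratio of 1.15 (1.08 to 1.22). Thus the zinc-finger partner was a little lower and the chromatin factor a little higher in knockout cells. *Zscan10* was the scarcest of the 7, at 17.4 CPM (15.1 to 20) against 23.2 CPM (20.2 to 26.5), a ratio of 1.33 (1.09 to 1.62). The ligand gene *Gdf3* had 112 CPM (106 to 119) against 144 CPM (136 to 152), a ratio of 1.28 (1.19 to 1.38). *L1td1*, for the RNA-binding protein, had 270.4 CPM (261 to 280.0) against 191 CPM (182 to 200.2), a ratio of 0.707 (0.667 to 0.749). After *Sox2* it was the member with the lowest ratio, below which lay 11.6% of all genes compared. The higher and lower genes nearly balanced in the sum of the 7, at 1710.0 and 1785 CPM, a ratio of 1.04 (1.02 to 1.07), which was 0.983 as a mean of per-cell CPM and 1.01 (0.988 to 1.03) with median of ratios scaling. The median ratio was 1.15 over the 7 genes and 1.01 over all genes compared. *Nanog*, another factor of the core network, had a ratio of 0.989 (0.937 to 1.04). By depth it did not hold one direction. Its ratio was 0.710 (0.599 to 0.838) for 2000 to 5000 UMIs, 0.898 (0.828 to 0.974) for 5000 to 10000 UMIs and 1.28 (1.16 to 1.42) above.

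**Figure D1:**
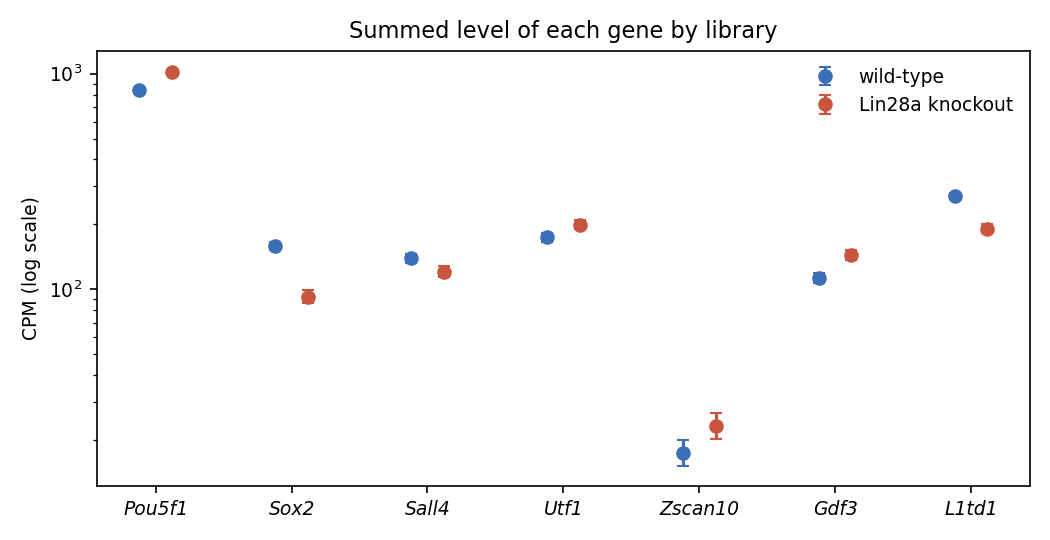
Level of each of the 7 genes in CPM (log scale) in the wild-type and the *Lin28a* knockout library, 1 library each; points are summed UMIs over all kept cells and bars exact 95% Poisson intervals of counting error. *Sox2* stands at 159 CPM in wild-type and 92.4 CPM in knockout cells, while *Pou5f1* stands at 838 and 1014 CPM.

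The libraries differed in depth, since 7.92% of wild-type but 19.2% of knockout cells had fewer than 1000 UMIs, so the ratios were also taken within 5 depth bins, each without its upper bound. *Sox2* was lower in the knockout library from 2000 UMIs upwards, at ratios of 0.613 (0.481 to 0.776) for 2000 to 5000 UMIs, 0.535 (0.472 to 0.604) for 5000 to 10000 UMIs and 0.664 (0.569 to 0.776) above. For 1000 to 2000 UMIs its ratio was 1.01, with an interval of 0.567 to 1.91 that holds both 1 and the ratio of all cells. *Pou5f1* was higher from 2000 UMIs upwards, at 1.24, 1.22 and 1.31, and its intervals took in 1 in the shallower bins, where it had 1.26 and 0.815. *Utf1*, *Zscan10* and *Gdf3* had ratios above 1 in 5 of 5 bins, with intervals above 1 in 3, 2 and 3 of them. From 10000 UMIs upwards *Zscan10* was at 1.03 (0.706 to 1.53). *L1td1* had 0.673, 0.742 and 0.720 in the deeper bins and 1.39 (0.805 to 2.53) under 1000 UMIs. *Sall4* did not hold one direction, since its ratio was 0.750 (0.667 to 0.843) for 5000 to 10000 UMIs and 1.11 (0.964 to 1.28) above.

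**Figure D2:**
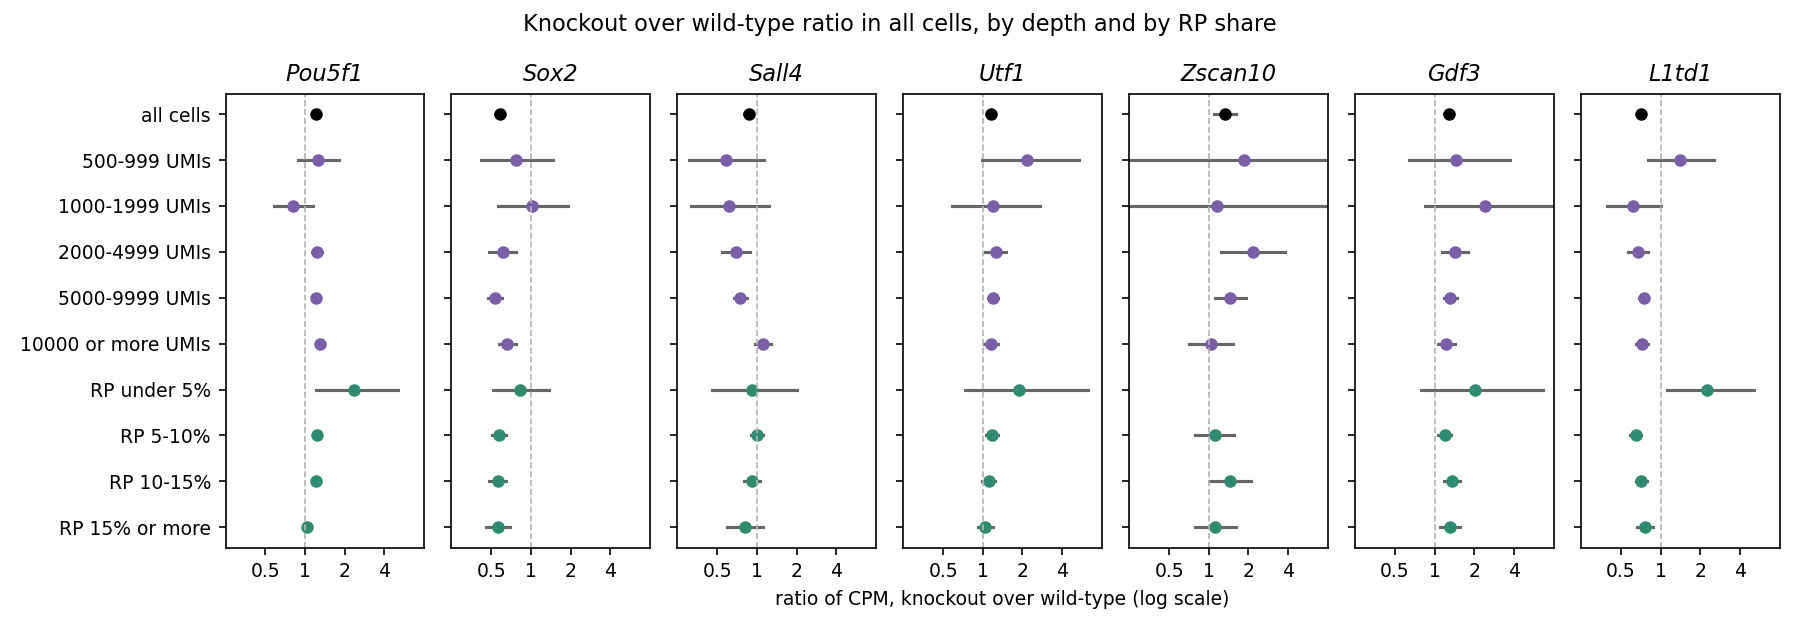
Ratio of CPM, knockout over wild-type (log scale), for each gene in all cells (black), within depth bins (purple) and within classes of the share of UMIs on ribosomal protein (RP) genes (green); lines are exact 95% intervals, some of which run past the axis for *Zscan10* and *Gdf3*, and *Zscan10* has no wild-type UMI under 5% RP. *Sox2* lies between 0.535 and 0.664 from 2000 UMIs upwards and between 0.561 and 0.573 from 5% RP upwards.

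The share of cells in which a gene was seen followed its level and the depth of the cell. *Pou5f1* had at least 1 UMI in 88.3% and 76.2% of cells, an order opposite to its CPM, while with each cell taken at 500 UMIs the shares were 32.5% (30.4 to 34.7) and 33.9% (31.5 to 36.2). For 5000 to 10000 UMIs it was seen in 97.7% and 98.6% of cells. *Sox2* had a UMI in 55.0% and 35.1% of cells, in 7.73% (6.53 to 9.01) and 5.28% (4.26 to 6.51) at 500 UMIs, and in 65.4% (62.4 to 68.2) and 46.9% (42.5 to 51.4) for 5000 to 10000 UMIs. It was thus lower in the knockout library by each measure. In the same bin *Sall4* was seen in 59.0% and 46.7%, *Utf1* in 63.9% and 73.0%, *Zscan10* in 11.3% and 16.4%, *Gdf3* in 51.9% and 59.4%, and *L1td1* in 84.7% and 73.4% of cells, in the order of their CPM. As a background, the collagen-rich cells had a *Pou5f1* UMI in 1 of 31 wild-type cells (median 9310 UMIs) and in 0 of 16 knockout cells (median 2105.5 UMIs). With 3 cells as the limit, a rule tighter than the exact interval, 0 of 16 allows a share of up to 18.8%. A *Sox2* UMI was found in 0 of the 31, which allows up to 9.68% by the same rule, and in 0 of the 16.

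**Figure D3:**
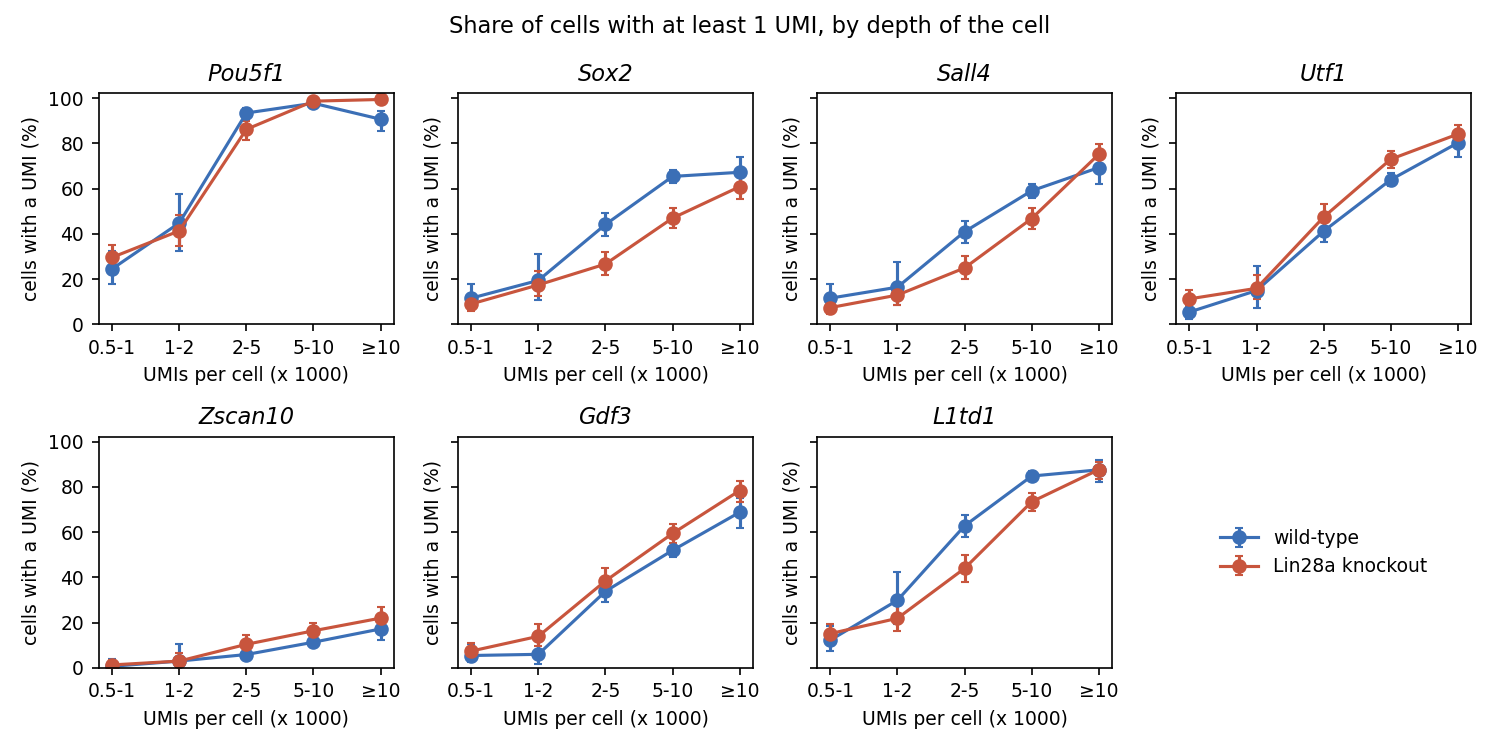
Share of cells with at least 1 UMI of each gene (%) by UMIs per cell (in units of 1000) in both libraries, collagen-rich cells included; bars are exact 95% binomial intervals. From 5000 to 10000 UMIs *Pou5f1* is seen in 97.7% and 98.6% of cells, wild-type first, and *Sox2* in 65.4% and 46.9%.

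The 7 genes also separated by ribosomal protein content. Cells were classed by RP share, the share of UMIs on 85 RP genes, into 91 and 236 cells under 5%, 983 and 464 at 5 to 10%, 567 and 585 at 10 to 15%, and 215 and 337 at 15% or more. Through these classes in that order, *Pou5f1* stood at 102, 737, 924 and 1105 CPM in wild-type cells and at 239.5, 910.4, 1125 and 1139.5 CPM in knockout cells. *Sox2* was highest in the lowest class and fell only slightly from 5% upwards. It stood at 256, 165, 150.2 and 147 CPM in wild-type cells and 212, 94.5, 84.2 and 82.7 CPM in knockout cells. *Sall4* peaked at 5 to 10%, with 112, 168, 127 and 51.1 CPM in wild-type cells and 103, 169, 116 and 41.6 CPM in knockout cells.

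In cells under 5% RP, *Pou5f1* was at 0.121 (0.0581 to 0.223) and 0.230 (0.182 to 0.287) of its level in the other cells of the same library. *Sox2* was higher in them, by 1.62 (1.04 to 2.39) and 2.41 (1.86 to 3.08). The core factors lay on opposite sides of the median gene, which was lower by 0.12 and 0.11 on the log2 scale. *Utf1* was lower, at 0.292 (0.0948 to 0.683) and 0.477 (0.325 to 0.676), as was *Nanog*, at 0.235 (0.0861 to 0.512) and 0.452 (0.320 to 0.619). *Sall4* had ratios of 0.808 and 0.853 whose intervals took in 1. Counting genes past 1.5-fold with an interval off 1, 3 of the 7 were lower in the wild-type library (14.8% of all genes), namely *Pou5f1*, *Utf1* and *L1td1*, and 2 of 7 in the knockout library (25.5%), *Pou5f1* and *Utf1*. *Sox2* was the 1 higher gene of the 7 in each library (13.9% and 26.0%). The wild-type values rest on 10 *Pou5f1* and 25 *Sox2* UMIs, and with RP genes out of the denominator the *Sox2* ratios were 1.48 (0.955 to 2.19) and 2.19 (1.69 to 2.80), so the wild-type call was lost. *Gdf3*, at 0.414 (0.134 to 0.969) and 0.644 (0.444 to 0.904), then became lower past 1.5-fold with an interval off 1 in both libraries, beside main ratios of 0.453 (0.147 to 1.06) and 0.709 (0.489 to 0.996).

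The cells under 5% RP stood apart in other measures too. Their median depth was 830 and 1207 UMIs, long intergenic noncoding RNAs took 13.9% and 7.19% of their UMIs against 2.68% and 2.00% in the other cells, and the median mitochondrial share was 4.32% and 5.98% against 1.30% and 1.36%. The 20 fibroblast markers summed to 12760.1 CPM against 2199 CPM in wild-type cells and to 2662 CPM against 1267 CPM in knockout cells, with 19 and 20 of them detected under 5% RP (*Lum* had no UMI). Within cells of 1000 to 5000 UMIs the *Pou5f1* ratios were 0.0854 (0.0176 to 0.250) and 0.239 (0.184 to 0.307), and those of *Sox2* 1.78 (0.906 to 3.16) and 2.38 (1.68 to 3.36). The ratios kept their direction in this narrower range, with 1 inside the wild-type *Sox2* interval, but depth was not equal in it, at medians of 1310 against 4007 UMIs in wild-type cells and 1520 against 3099 UMIs in knockout cells. There *Utf1*, at 0.426 (0.0873 to 1.26) in the wild-type library, no longer had an interval off 1. *Sox2ot*, the transcript that spans *Sox2*, was 6.83-fold (3.69 to 12) higher under 5% RP in the knockout library, with 16 UMIs, and had 1 UMI there in the wild-type library. The part of noncoding RNA, fibroblast RNA and *Sox2ot* in the *Sox2* values was not tested.

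**Figure D4:**
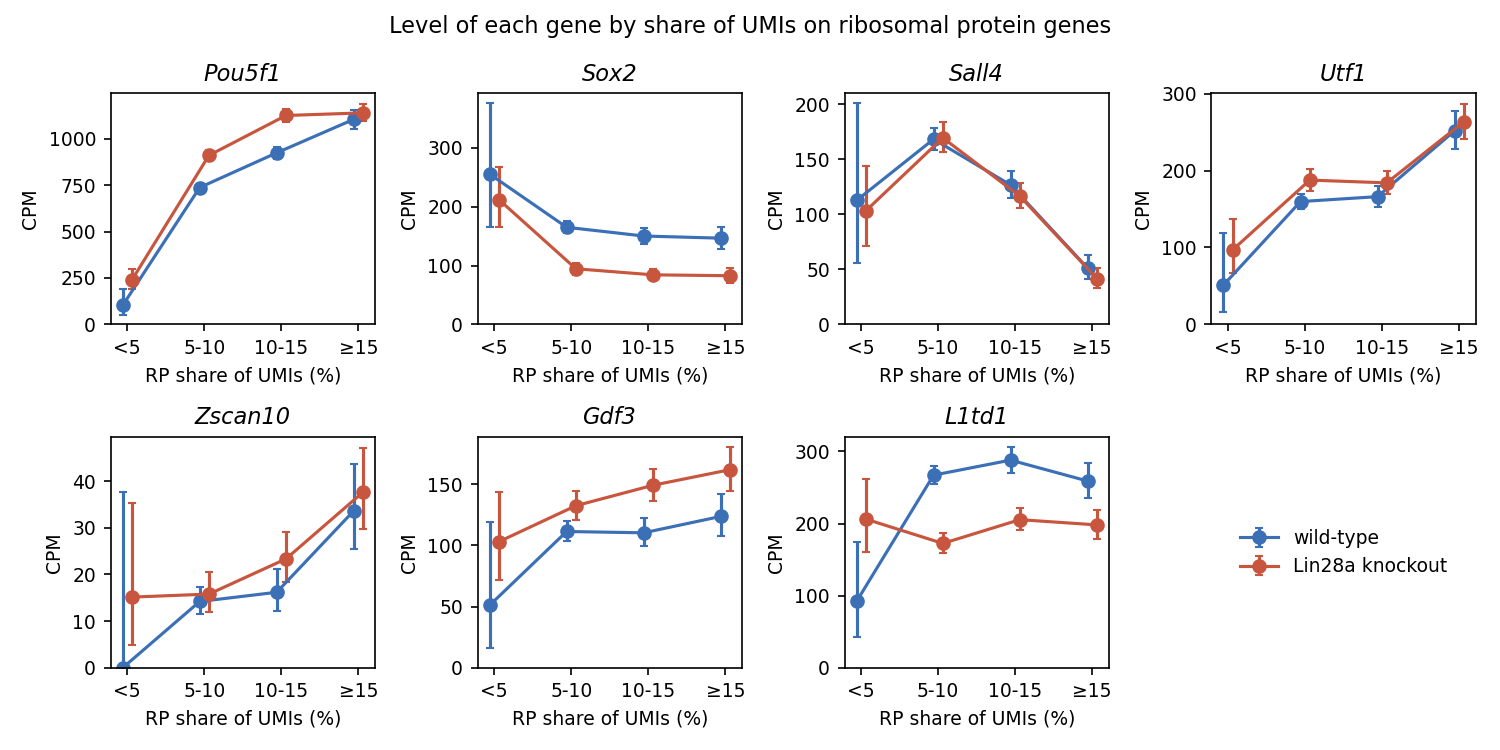
Level of each gene (CPM, axes from 0) in 4 classes of the share of UMIs on RP genes (%), by library; bars are exact 95% Poisson intervals. *Pou5f1* runs from 102 to 1105 CPM in wild-type cells and *Sall4* from 168 CPM at 5 to 10% to 51.1 CPM at 15% or more, with the same order of classes in knockout cells.

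Between cells of 15% or more and cells of 5 to 10% RP, *Sall4* and *Pou5f1* went opposite ways in both libraries. *Sall4* was at 0.304 (0.241 to 0.379) and 0.246 (0.193 to 0.309) in the RP-rich cells, whereas *Pou5f1* was higher, by 1.5 (1.42 to 1.58) and 1.25 (1.19 to 1.32). *Utf1* was higher by 1.58 (1.40 to 1.77) and 1.40 (1.25 to 1.57), and *Zscan10* by 2.37 (1.67 to 3.33) and 2.38 (1.67 to 3.42). *Gdf3* had ratios of 1.11 (0.947 to 1.30) and 1.22 (1.06 to 1.41), and those of *Sox2*, 0.888 and 0.875, had intervals that took in 1. The median gene was lower in the RP-rich cells, with ratios of 0.786 and 0.743, so *Sall4* lay below it and the other 6 above it. Past 1.5-fold with an interval off 1 were *Utf1* and *Zscan10*, 2 of 7 higher in the wild-type library (23.3% of all genes), *Zscan10* alone in the knockout library (22.8%), and *Sall4* as the 1 of 7 lower in both (42.5% and 44.9%). With RP genes out of the denominator, *Pou5f1* at 1.66 in the wild-type library and *Utf1* at 1.55 in the knockout library also passed 1.5-fold. *Nanog* was lower too, at 0.209 (0.171 to 0.252) and 0.162 (0.133 to 0.195).

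The *Sall4* ratio was as low within cells of 5000 to 10000 UMIs, at 0.256 (0.185 to 0.347) and 0.216 (0.150 to 0.304). In that bin *Pou5f1* was at 1.45 (1.35 to 1.55) and 1.21 (1.12 to 1.32). The median mitochondrial share was 0.173% and 0.262% in the RP-rich cells against 1.67% and 2.44% at 5 to 10% RP, and its part in these ratios was not tested.

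The ratio between the libraries was nearly constant over the RP classes for *Sox2*, at 0.573 (0.505 to 0.647), 0.561 (0.483 to 0.650) and 0.564 (0.461 to 0.690) from 5% upwards, and 0.830 (0.519 to 1.37) below. *Pou5f1* was at 1.23 and 1.22 in the middle classes and 1.03 (0.970 to 1.10) at 15% or more, so its higher level in the knockout library was not seen in RP-rich cells. *Sall4* had ratios of 1.01 (0.911 to 1.11), 0.920 (0.800 to 1.06) and 0.815 (0.595 to 1.11) from 5% upwards, with 1 inside each interval. Its lower level in the whole knockout library stood beside a larger share of cells of 15% or more RP, 20.8% against 11.6%, whose part in it was not tested. *Gdf3* was higher in the knockout library at 1.19 (1.06 to 1.34), 1.35 (1.18 to 1.55) and 1.31 (1.10 to 1.57), and *L1td1* lower at 0.646, 0.713 and 0.765. Under 5% RP the sum of the 7 was higher in the knockout library, at 1.47 (1.12 to 1.95), with *Pou5f1* at 2.34 (1.21 to 5.07) and *L1td1* at 2.24 (1.11 to 5.11). The wild-type side of these ratios holds 10 *Pou5f1* and 9 *L1td1* UMIs, and within cells of 1000 to 5000 UMIs the *L1td1* ratio was 1.77 (0.714 to 5.67). Of the 91 wild-type and 236 knockout cells under 5% RP, 5 and 8 were collagen-rich, and fibroblast markers stood at 12760.1 and 2662 CPM. The part of these cells and markers in the ratios was not tested.

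The 7 genes were nearly absent from collagen-rich cells. Together they had 10 UMIs in the 31 wild-type cells, 31.3 CPM against 1757 CPM in the other cells, and 2 UMIs in the 16 knockout cells, 27.5 CPM against 1798 CPM. *Pou5f1* had 1 UMI in the wild-type cells, where it was at 3.13 CPM against 862 CPM, a ratio of 0.00364 (9.2e-05 to 0.0203). In the collagen-rich knockout cells it had none and was at least 24.8-fold lower by a floor of 3 counts in those cells, or 20.2-fold by the exact interval. *Sox2* had no UMI in either, and was at least 17.4-fold lower in the wild-type library and at least 2.26-fold lower in the knockout library by the same floor. By the exact intervals these limits were 14.1-fold and 1.83-fold. Past 1.5-fold with an interval off 1, 7 of 7 were lower in the wild-type library (28.6% of all genes) and 6 of 7 in the knockout library (10%), *Zscan10* being the other. Of the 17 fibroblast markers that did not define these cells, 17 were higher in those of the wild-type library, and 16 in the knockout cells, where *Lum* was at 0. *Klf4*, which fibroblasts also express, was the 1 ES marker of 10 not lower, at 1.19 (1.03 to 1.36) and 0.857 (0.585 to 1.21). With a collagen limit of 0.5% in place of 1%, which takes in 41 and 21 cells, the summed 7 genes were at 0.0542 and 0.168 of the other cells. Leaving collagen-rich cells out gave a *Sox2* ratio between the libraries of 0.570 (0.525 to 0.618) and a *Pou5f1* ratio of 1.19 (1.15 to 1.22).

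Cells without any of the 7 transcripts were rare at depth and mostly held collagen transcripts. Among cells of at least 5000 UMIs, 27 of 1234 wild-type but 7 of 821 knockout cells had no UMI of any of them, and 26 and 6 of these held at least 0.5% collagen UMIs. A cell of that depth that was not collagen-rich and had no *Pou5f1* UMI was found 15 times in the wild-type library and 3 times among knockout cells. From 2000 UMIs upwards there were 40 of 1642 such wild-type cells (2.44%) and 41 of 1110 such knockout cells (3.69%), of which 3 and 21 were under 5% RP. In the 15 wild-type cells of at least 5000 UMIs fibroblast markers summed to 14346.6 CPM, against 868 CPM in the deep wild-type cells with *Pou5f1*, and *Sox2* stood at 129 CPM against 164 CPM. In the 3 knockout cells fibroblast markers summed to 22300.5 CPM, against 840.3 CPM in the knockout cells of that depth with *Pou5f1*. *Sox2*, *Sall4*, *Utf1* and *Gdf3* had no UMI in them, while *Zscan10* and *L1td1* stood at 57.8 CPM each. No limits were taken for these zeros, which rest on 3 cells.

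With collagen-rich cells left out, the median number of the 7 genes found per cell was 1, 1, 3, 4 and 5 in the 5 depth bins, in both libraries. From 5000 to 10000 UMIs, 47.4% and 40.2% of cells had 5 or more of the 7, and 1.56% and 1.79% had all 7. *Pou5f1*, *Sox2* and *Sall4* were found together in 39.2% of the 1028 wild-type cells of that bin against 23.1% of the 503 knockout cells.

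**Figure D5:**
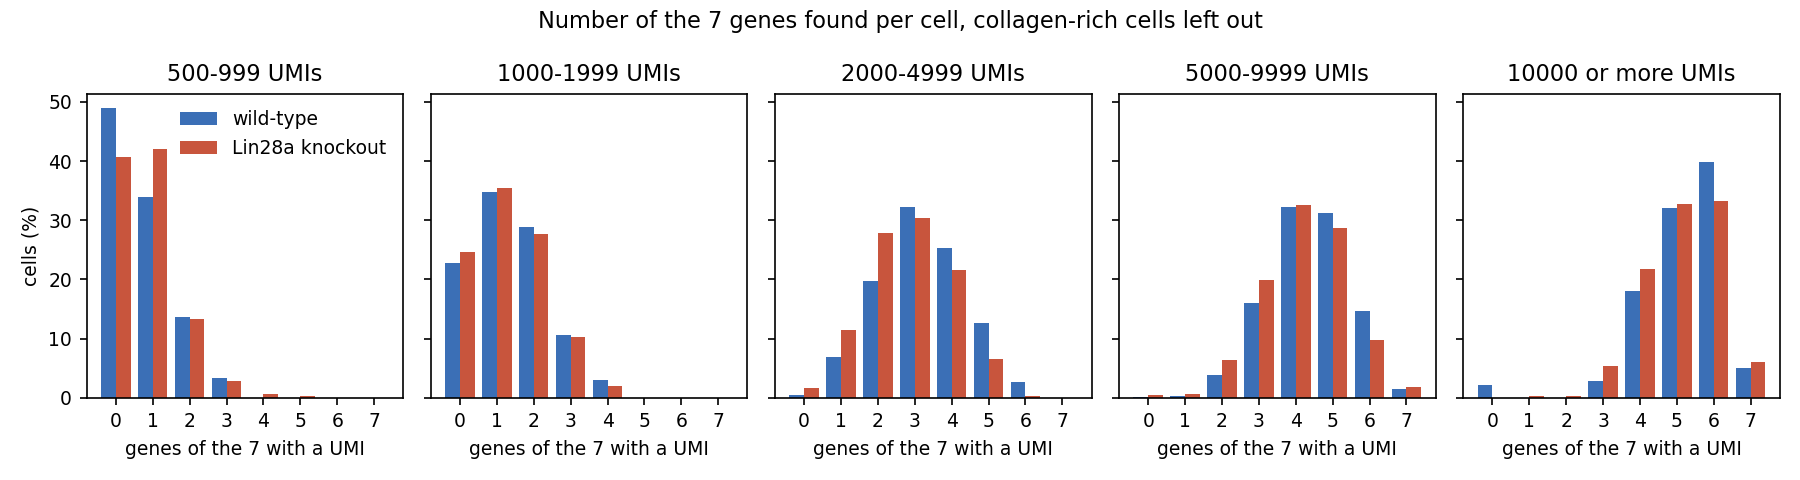
Share of cells (%) by how many of the 7 genes had at least 1 UMI, in 5 depth bins, collagen-rich cells left out. Both libraries move from a median of 1 gene under 1000 UMIs to a median of 5 at 10000 UMIs or more.

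Detection of *Sox2* was set beside that of the other genes within one depth bin. *Pou5f1* and *Sox2* were found together in 65.7% and 47.3% of cells of 5000 to 10000 UMIs. *Pou5f1* was seen in 675 of 681 wild-type cells with *Sox2*, 99.1% (98.1 to 99.7), and in 342 of 347 without it, 98.6% (96.7 to 99.5). In the knockout library it was seen in 238 of 238 and 262 of 265, so that with *Pou5f1* in nearly every cell these shares had little room to differ. *Sall4* was seen in 59.8% (56.0 to 63.5) of wild-type cells with *Sox2* and 59.7% (54.3 to 64.9) of those without, and in 48.7% (42.2 to 55.3) against 45.7% (39.6 to 51.9) of knockout cells. *Gdf3* was the gene with the largest gap by *Sox2*, seen in 54.3% against 49.3% of wild-type cells and 64.3% against 55.5% of knockout cells, with overlapping intervals. Among the 15 pairs without *Pou5f1*, 0 had intervals that stood apart in either library. Cells of this bin lacking *Pou5f1* were few, 11 and 3, and by its presence the intervals stood apart for *Utf1* and *L1td1* in the wild-type library. *Utf1* was found in 65.1% (62.1 to 68.0) of cells with *Pou5f1* and 27.3% (6.02 to 61.0) of those without, and *L1td1* in 86.1% (83.9 to 88.2) and 54.5% (23.4 to 83.3). These 11 cells are among the 15 wild-type cells of at least 5000 UMIs above, in which fibroblast markers summed to 14346.6 CPM against 868 CPM and ES markers to 2218 CPM against 3943 CPM. The 15 also take in 4 cells of at least 10000 UMIs with none of the 7 genes. The marker sums were not taken for the 11 cells alone, and the part of these markers in the gaps was not tested. Pairs with genes outside the 7 were not compared in this way. The calls of intervals apart, and their absence, therefore have no share over all genes beside them.

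The genes differed in the estimated evenness of their spread over cells. From 5000 to 10000 UMIs the squared coefficient of variation beyond counting noise was 0.0503 and 0.0508 for *Pou5f1*, below the median of 0.184 and 0.233 over all genes of at least 0.2 UMIs per cell. *Pou5f1* had a median of 6 UMIs per wild-type cell (highest 18) and 7 per knockout cell (highest 23). Its means were 6.24 and 7.75 UMIs per cell, and the genes behind the medians of spread were not matched in level to it or to the other 6. *L1td1* was also even, at 0.0411 and 0.147, and *Sox2* had 0.154 and 0.0909. *Sall4* varied more, at 0.271 and 0.421, as did *Utf1* in the wild-type library, at 0.428 against 0.221 in the knockout library. *Gdf3* had 0.153 and 0.354, and *Zscan10* was under the mean needed. These estimates have no interval, and their differences between genes or libraries were not tested.

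The transcripts that went most with each gene over single cells were named by the smaller of the Pearson r in the 1206 wild-type and 815 knockout cells of at least 5000 UMIs that were not collagen-rich, among 6555 genes, as a description of cells that share a library. For *Pou5f1* they were *Rps2-ps13* (0.287), a pseudogene of an RP gene, *Dppa5a* (0.263), an ES cell marker, and *Gm6311* (0.260). For *Sall4* they were the mitochondrial *mt-Nd1* (0.337), *Ywhaz* (0.308) and *mt-Atp6* (0.306). The highest were *Mkrn1* for *Utf1* (0.144), *Ncl*, which encodes nucleolin, for *L1td1* (0.130), *Gm47654* for *Sox2* (0.108), *Eif3f* for *Zscan10* (0.101) and *Dph3* for *Gdf3* (0.0996), values too weak in sparse counts to be read as likeness. Among the 7 genes the largest were *Pou5f1* with *Sall4*, at -0.130 and -0.107, and *Pou5f1* with *Utf1*, at 0.104 and 0.102, also weak.

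The surrounding genes of the network, taken as lists, mostly stayed within 1.5-fold between the libraries. Of 6 measured targets of the OCT4 and SOX2 pair, 1 was higher in the knockout library, *Fgf4*, a growth factor of ES cells, at 1.67 (1.49 to 1.86), and 1 was lower, *Spp1*, which encodes osteopontin, at 0.588 (0.544 to 0.635). Over all 9831 genes, 6.49% were past 1.5-fold higher and 8.45% lower. Of 27 genes for protein partners of OCT4, 0 were higher and 1 was lower, *Rif1*, a factor of replication timing and DNA repair, at 0.513 (0.487 to 0.540). Of 12 measured genes of the naive network 0 were past 1.5-fold, and *Klf5* at 1.36 and *Zfp42* at 0.787 were its ends. Around *Gdf3*, 2 of 11 measured genes of the NODAL pathway were higher, the ligand gene *Nodal* at 1.53 (1.37 to 1.72) and *Furin*, for a protease that processes TGF-beta ligands, at 1.53 (1.33 to 1.76), and 0 were lower. Among 6 measured relatives in the POU, SOX and SALL families, 1 was lower, *Sox4* at 0.533 (0.439 to 0.644), and 0 were higher. Measured here means at least 200 UMIs over both libraries. Of the 17 scarcer listed genes with any UMI, 7 were higher past 1.5-fold with an interval off 1 (5.25% of the 26921 genes of that range) and 0 were lower (2.96%). The 7 were *Sox21* at 3.03 (2.02 to 4.62), *Sox1* at 2.27 (1.22 to 4.38), *Pou5f2* at 1.57 (1.10 to 2.27), and in the NODAL pathway *Foxh1* at 3.47 (2.12 to 5.85), *Lefty1* at 4.98 (1.34 to 27.5), *Lefty2* at 1.89 (1.11 to 3.27) and *Gdf1* at 3.49 (1.19 to 12.4). The 17 listed genes were not matched in UMIs to the 26921 genes, and genes of few UMIs can seldom give an interval off 1. The 5.25% and 2.96% are therefore not a like background for the 17. *Sox11*, at 0.682 (0.501 to 0.922), stayed within 1.5-fold. The median ratios of the measured genes of these 5 lists were 0.888, 1.09, 0.955, 1.04 and 1.07, beside 1.01 over all genes.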

How the data were processed

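The authors made digital expression matrices from the 2 inDrop libraries following an earlier pipeline for this method, and deposited them as UMI counts that were not normalized. The submitters' processing notes name mm10 and Seurat 2.3.4, and the aligner and annotation are not given in the sources used here. Of 54146 gene identifiers, 54079 matched GENCODE M21 of GRCm38 with the version dropped, and coordinates are from it. Barcodes are numbered and carry no sequence, so those shared by the libraries could not be counted.

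The 7 genes, the lists of pathway genes and markers and the tests were chosen with earlier results of these data known. The contrast of 15% or more with 5 to 10% RP and the ratios within RP classes and within depth bins other than 5000 to 10000 UMIs were added after seeing the data. Cells needed at least 500 UMIs and at most 20% mitochondrial UMIs. The 85 RP genes are protein-coding and exclude pseudogenes. CPM had exact Poisson, shares exact binomial (Clopper-Pearson) and ratios exact conditional 95% intervals, which cover counting error only. Genes compared had at least 200 UMIs over both libraries. For a gene at 0, 3 counts or 3 cells set the limit, which is tighter than the exact interval. Doublets were called with Scrublet in scanpy, 25 wild-type (1.35%) and 15 knockout cells (0.925%), and kept. Shares at 500 UMIs came from the hypergeometric distribution. Named genes were the 7, *Nanog*, listed genes past 1.5-fold (at most 3 each way per list) and the 3 genes with the highest smaller r per gene. *Klf5*, *Zfp42*, *Klf4*, *Lum*, *Sox2ot* and the listed genes under 200 UMIs, past 1.5-fold with an interval off 1, and *Sox11* were named after their values were seen. Promoter windows are the 250 bases before each RefSeq start, with entries for 5 of the 7 genes. The calculations were tested on simulated data. Figures were drawn with matplotlib 3.10.9, and tables handled in pandas 2.3.3 and anndata 0.12.19 with scanpy 1.11.5, scipy 1.17.1 and numpy 2.4.6 under Python 3.11.15.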

Additional observations from a re-analysis of the deposited data

Results flagged for a closer look

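The ratios of *L1td1* lay on opposite sides of 1 in the 2 libraries in both contrasts of RP share, although in each contrast 1 of the 2 intervals took in 1. Under 5% RP it was at 0.338 of its level in the other wild-type cells and at 1.08 in the knockout library, where the interval of 0.836 to 1.38 took in 1. At 15% or more RP it was at 0.970 of its level at 5 to 10% RP in the wild-type library (0.870 to 1.08) and at 1.15 in the knockout library (1.01 to 1.30). With RP genes out of the denominator the opposite directions were lost, at 0.310 and 0.982 under 5% RP and at 1.07 and 1.27 at 15% or more. They were also lost for 15% or more within cells of 5000 to 10000 UMIs, at 0.932 (0.812 to 1.07) and 0.999 (0.830 to 1.20). With 1 library per genotype these differences were not tested.

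The barcodes under 500 UMIs, which were not kept as cells, also held the 7 transcripts. The 2472 wild-type barcodes had 569 UMIs of them, 1296 CPM, and the 4423 knockout barcodes had 930 UMIs, 1381.5 CPM. *Pou5f1* stood at 449 and 515 CPM there, a ratio of 1.15 (0.962 to 1.38). *Sox2* stood at 100.2 and 101 CPM, a ratio of 1.01 (0.680 to 1.51) whose interval does not hold the 0.581 of the kept cells.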

How the results depend on the processing

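Another 12 settings were tried for each ratio between the libraries. *Sox2* kept a ratio of 0.535 to 0.687, *Pou5f1* of 1.08 to 1.23, *L1td1* of 0.683 to 0.751, *Sall4* of 0.750 to 0.883, *Utf1* of 1.11 to 1.19, *Gdf3* of 1.24 to 1.31 and *Zscan10* of 1.29 to 1.5. As a mean of per-cell CPM *Pou5f1* was at 1.08, *Sox2* at 0.687 and the sum of the 7 at 0.983, the reverse of its direction. With median of ratios scaling *Pou5f1* was at 1.17 and the sum at 1.01, and in cells of 5000 to 10000 UMIs *Sox2* was at 0.535. 1 gene of the 7 was past 1.5-fold in each setting, *Sox2* except with the mean of per-cell CPM, where it was *Zscan10*. Any of the 7 genes was seen in 55.6% and 54.8% of cells, wild-type first, at 500 UMIs, in 80.1% and 79.5% at 1000 UMIs, and in 93.6% and 88.0% with no thinning. For the sum, a collagen limit of 0.5% gave 0.0542 and 0.168, a limit of 10% RP gave 0.872 and 0.854, and a denominator without RP genes raised the contrast of 15% or more with 5 to 10% RP to 1.34 and 1.26, in wild-type and knockout cells. In cells of 5000 to 10000 UMIs the same contrast of *L1td1* in the knockout library was 0.999 (0.830 to 1.20). The higher level of 1.15 was thus not seen there, although the interval holds it. Outside collagen-rich cells, *Pou5f1* and *Sox2* were found together in 41.9% and 23.3% of cells of 2000 to 5000 UMIs. These shares were 72.5% and 61.2% in cells of at least 10000 UMIs. The cause of these shifts was not tested. No paired analysis was possible because each group has 1 library. Depth limits the values of cells under 5% RP, where *Pou5f1* had 10 wild-type UMIs, and those of *Zscan10*, with 203 and 217 UMIs in all.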
